A study of Mus musculus with 6 samples.

Results

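The nephrin and Kirrel adhesion family was followed on the arrays through 5 genes, Nphs1, Kirrel2, Kirrel, Kirrel3 and Cd2ap. All probes that carried 1 of these names and were not controls were taken, which gave 10 of 55681 probes and 5 of 24082 gene symbols. The members were chosen with the difference between the 2 sorted fractions known, because Nphs1 and Kirrel2 lie next to each other on chromosome 7 and both differed. Their values between the fractions are therefore given as a description, with no test. RNA was measured in A+/G+ cells, which were positive for ACSA-2 and GLAST, and in A-/G+ cells, which were negative for ACSA-2 and positive for GLAST, with 3 arrays per fraction. ACSA-2 is an epitope of Atp1b2, a subunit of the sodium pump, and GLAST is the glutamate transporter Slc1a3 of astroglia. The labels give untreated wild-type CD1 mice at postnatal days 1 to 3. The study's methods give a C57BL/6 background and, for the arrays, cerebella from the day of birth or the day after. The strain and the age thus do not match between the 2 sources. Each sample held 50000 cells of pooled cerebella of either sex. The A+/G+ cells were taken in a single step with beads against ACSA-2 and were not selected for GLAST as well. The A-/G+ cells were what bound beads against GLAST after L1CAM, ACSA-2, CD45, PSA-NCAM and Ter119 positive cells had been removed.

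Nephrin, the product of Nphs1, and the Neph proteins, Kirrel (Neph1), Kirrel3 (Neph2) and Kirrel2 (Neph3), are transmembrane adhesion molecules of the immunoglobulin superfamily. They bind each other between neighboring cells and are best known from the slit diaphragm, the junction between the foot processes of kidney podocytes. Cd2ap is a cytoplasmic adaptor that binds the tail of nephrin and links it to actin. In the developing nervous system, nephrin and Neph3 are known from Ptf1a-dependent progenitors of GABAergic neurons. The study also cites earlier work on nephrin in radial glia of the neonatal cerebellum and in precursors of Bergmann glia. From these arrays it already placed Nphs1 among the genes most increased in A-/G+ cells, with Ptf1a further down its list. It found Kirrel2 and Ptf1a in common between A-/G+ cells and a neurogenic cluster in published single-cell data of newborn cerebellum. It proposes that A-/G+ cells include progenitors of GABAergic interneurons and of Bergmann glia. The higher signal of Nphs1, Kirrel2 and Ptf1a in A-/G+ cells is thus not first reported here. Ptf1a is a transcription factor that acts together with an E protein and Rbpj.

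The sequences that were read are shown first, because each value depends on where its probe lies. Each probe is 60 bases long. Its first 30 bases are given here in lower case, 5′ to 3′ as printed in the array annotation, for the probes of Nphs1 and Kirrel2 and for the brightest probe of each other member.
Nphs1: tgccacatatacacgcccacacgcctgaca
Kirrel2, brighter probe: acattgaaggagggaaagatcattacaagc
Kirrel2, dimmer probe: ttgagcggtagagaacaccggagactgcgg
Kirrel: catcatagatttttagcaatgtgtatctgt
Kirrel3: gacatggtacattctcgttctccaaggatt
Cd2ap: cccggtcttaacagaggactccttacactc
On the mm9 build named by the array annotation, the Nphs1 probe lies on the plus strand of chromosome 7 (chr7:31273569-31273628). The probes of Kirrel2 lie on the minus strand of the same chromosome, the brighter at chr7:31232969-31233028 and the dimmer at chr7:31242003-31242062. The brightest probes of the other members lie at chr3:86882628-86882687 (Kirrel, minus strand), chr9:34842904-34842963 (Kirrel3, plus strand) and chr17:42930324-42930383 (Cd2ap, minus strand). No annotation of this build was used here, so whether a probe lies in a coding exon or a UTR is not given.

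Since Nphs1 and Kirrel2 run in opposite directions from neighboring starts, the RefSeq promoter windows of both genes on GRCm38.p6 are shown, from 250 bases before to 50 bases after the start. Capitals mark TGGGAA, the core that Rbpj binds, and the E-box CANNTG, the site of basic helix-loop-helix factors.
Nphs1, chr7:30459808-30460107, plus strand: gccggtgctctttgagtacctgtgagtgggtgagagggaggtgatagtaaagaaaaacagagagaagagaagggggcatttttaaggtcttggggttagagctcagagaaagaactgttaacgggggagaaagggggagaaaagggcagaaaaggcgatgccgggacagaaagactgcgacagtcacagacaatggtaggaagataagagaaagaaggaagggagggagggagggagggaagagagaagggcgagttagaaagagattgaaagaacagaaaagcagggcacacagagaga
Kirrel2, chr7:30457466-30457765, minus strand: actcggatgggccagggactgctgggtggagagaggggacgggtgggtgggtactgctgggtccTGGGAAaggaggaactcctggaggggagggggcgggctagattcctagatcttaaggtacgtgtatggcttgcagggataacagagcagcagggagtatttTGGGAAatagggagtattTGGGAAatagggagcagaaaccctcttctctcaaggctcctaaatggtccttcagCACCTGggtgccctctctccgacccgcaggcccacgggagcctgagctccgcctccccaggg
The start sites are 2543 bases apart. Both strands were searched. The Kirrel2 window held the Rbpj core at bases 65 to 70, 166 to 171 and 184 to 189, and 1 E-box, CACCTG, at bases 239 to 244, counted from 1 at the 5′ end of the window. In the Nphs1 window neither motif was found, which says only that these letters are not in the 300 bases shown. Of 32851 promoter windows of the same length, 25.6% held the Rbpj core, 72.3% held an E-box, 20.2% held the E-box variant of Kirrel2 and 19.0% held both the core and an E-box. The core occurred at 3 or more positions in 121 windows (0.37%), a count that was made after the Kirrel2 window had been seen. Of the other members, Kirrel and Cd2ap had a window (no window was listed for Kirrel3): that of Kirrel held neither motif, and that of Cd2ap held 2 E-boxes, 1 of them of the variant CAGCTG (found in 16.3% of all windows), and no Rbpj core.

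All values below are normalized signals on the log2 scale unless an intensity is named, and differences are A+/G+ minus A-/G+. The arrays of the fractions were not alike in brightness. The 75th percentile of the intensity was 329 to 332 on the A+/G+ arrays and 55.9, 112 and 250 on A-/G+ arrays 1, 2 and 3, and 26476 to 26655 against 18340 to 24730 probes were well above background. The A+/G+ arrays lay on 1 slide and the A-/G+ arrays on another, and the slide and the fraction therefore cannot be told apart. Across genes above background on all arrays, the correlation between arrays was 0.992 to 0.996 within A+/G+ and 0.959 to 0.982 within A-/G+. The sorted antigens followed the sort for Atp1b2 (12.82 ± 0.14 against 10.66 ± 0.31, SD, n = 3; limma with Benjamini-Hochberg adjustment, adjusted p = 0.00725). Slc1a3 was present in both fractions (13.39 ± 0.19 against 14.59 ± 0.51, SD, n = 3, limma adjusted p = 0.0733), and all 10 genes of an astroglial marker list were above background on all 6 arrays. The calls below come from limma over all probes.

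Nphs1 encodes nephrin and was read by 1 probe. Its signal was 7.20, 7.22 and 7.84 on the A+/G+ arrays and 11.02, 10.84 and 9.87 on the A-/G+ arrays. The fractions did not overlap, A-/G+ being the higher, and the gap between the closest arrays of the fractions was 2.03. The mean was 7.42 ± 0.37 in A+/G+ and 10.58 ± 0.62 in A-/G+ (SD, n = 3), a difference of -3.16, and the medians were 12.3-fold apart. In A+/G+ cells this signal was above that of the brightest probe of 59.7% of all gene symbols, and in A-/G+ cells above 86.5%. Ordered by the difference, Nphs1 was number 18 of 24082 gene symbols toward A-/G+. The intensities before normalization were 247, 247 and 390 on the A+/G+ arrays and 577, 1090 and 1212 on the A-/G+ arrays, so the A-/G+ arrays were higher for this probe although they were dimmer as a whole. In sorted cells measured in bulk, more cells that express a gene and more RNA per cell cannot be told apart.

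Kirrel2 encodes Neph3, a binding partner of nephrin across cell contacts. Its brighter probe gave 7.31, 7.65 and 8.04 on the A+/G+ arrays and 10.64, 10.95 and 10.29 on the A-/G+ arrays, again without overlap and with a gap of 2.24. The means were 7.67 ± 0.37 and 10.62 ± 0.33 (SD, n = 3), a difference of -2.95, and the medians were 7.91-fold apart. Kirrel2 was number 28 of all gene symbols toward A-/G+. The intensities were 268, 342 and 451 against 445, 1181 and 1626, so that before normalization A-/G+ array 1 lay just below A+/G+ array 3. The dimmer probe of Kirrel2 lies in another part of the gene and showed the same direction. It gave 3.80, 3.84 and 4.55 in A+/G+ and 6.21, 7.41 and 6.24 in A-/G+, with means of 4.07 ± 0.42 and 6.62 ± 0.68 (SD, n = 3), a difference of -2.55 and medians 5.26-fold apart. The brighter probe exceeded the dimmer by 3.49 to 3.81 on the A+/G+ arrays and by 3.54 to 4.42 on the A-/G+ arrays. Both probes were above background on all 6 arrays.

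Among the arrays of a fraction, Nphs1 and the brighter Kirrel2 probe shared some extremes. In A+/G+, array 3 was the highest for both, 0.42 and 0.37 above the mean of the fraction. In A-/G+, array 3 was the lowest for both, 0.71 and 0.34 below the mean, while the highest was array 1 for Nphs1 and array 2 for Kirrel2. The dimmer Kirrel2 probe was highest on array 3 of A+/G+ as well, but in A-/G+ its arrays 1 and 3 were nearly level. A-/G+ array 3 was also the brightest array of its fraction, and whether its brightness had a part in this was not tested. Without A-/G+ array 3 the difference was -3.51 for Nphs1 and -3.12 for Kirrel2.

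Kirrel encodes Neph1, the Neph protein of the slit diaphragm that binds nephrin in podocytes. Its brightest probe gave 8.13, 8.45 and 8.11 on the A+/G+ arrays and 7.67, 7.92 and 7.65 on the A-/G+ arrays. The A+/G+ arrays were all above the A-/G+ arrays, though the closest arrays were only 0.19 apart. The means were 8.23 ± 0.19 and 7.75 ± 0.15 (SD, n = 3), a difference of 0.48, and the medians were 1.37-fold apart. The other 2 probes of Kirrel, at chr3:86893479-86893538 and chr3:86886885-86886944, were not above background on any array. They lay between 1.89 and 4.19, and their directions disagreed, with differences of -0.67 and 1.02. With arrays shifted by their 75th percentile in place of quantile normalization, the second of these became -0.10.

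Kirrel3 encodes Neph2, a family member found at synapses. Its brightest probe gave 7.90, 7.72 and 7.58 in A+/G+ and 6.86, 6.86 and 6.56 in A-/G+, with no overlap. The means were 7.73 ± 0.16 and 6.76 ± 0.17 (SD, n = 3), a difference of 0.97, and the medians were 1.82-fold apart. The second probe, at chr9:34842739-34842798, gave 7.34, 7.51 and 7.43 against 6.46, 6.76 and 6.34, a difference of 0.91. Both probes were annotated to 4 RefSeq transcripts and lie close together, so they are not independent reads of the gene. The third probe, at chr9:34712550-34712609, was annotated to 1 transcript and was not above background on any array, at 2.01 to 2.08.

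Cd2ap, the adaptor, was read by 1 probe, and its fractions overlapped. Its signal was 9.60, 9.72 and 9.62 on the A+/G+ arrays and 9.62, 9.60 and 9.78 on the A-/G+ arrays. The means were 9.65 ± 0.07 and 9.67 ± 0.10 (SD, n = 3), a difference of -0.02 that was smaller than the spread between the arrays of a fraction. Its signal lay above that of 78.9% and 79.3% of all gene symbols in the respective fractions.

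**Figure D1:**
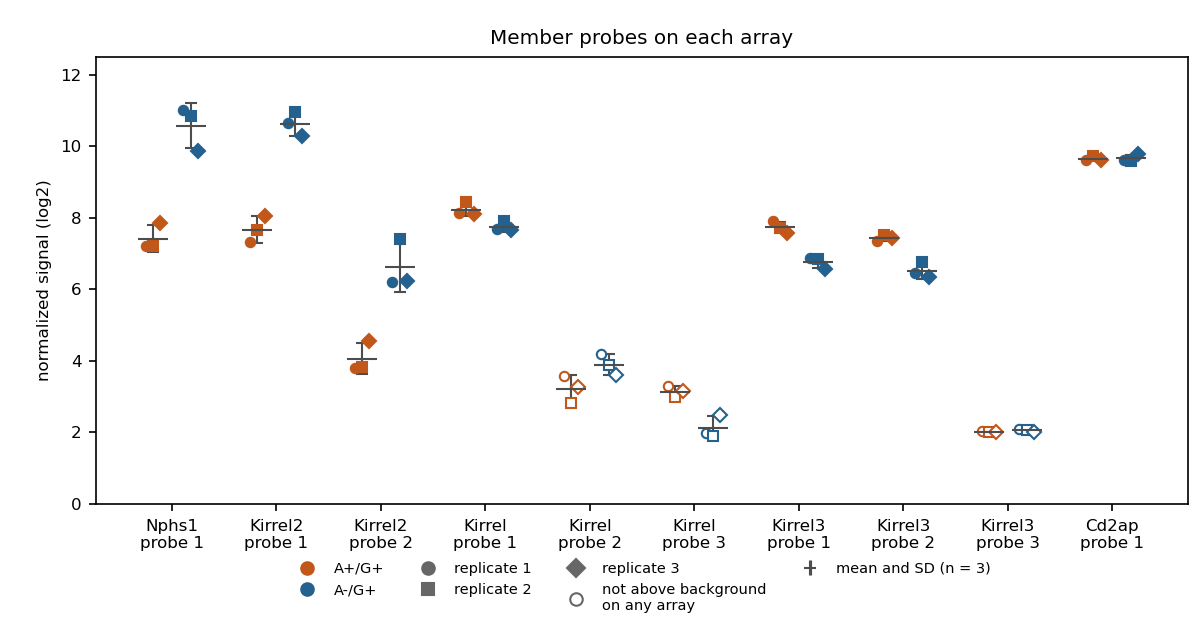
Normalized log2 signal (vertical axis) of all 10 member probes (horizontal axis) on the 3 A+/G+ and 3 A-/G+ arrays, with marker shapes for replicates and bars for the mean and SD; open markers are probes not above background on any array. Nphs1 and both Kirrel2 probes are higher on all A-/G+ arrays, the brightest probes of Kirrel and Kirrel3 are higher on all A+/G+ arrays, and those of Cd2ap overlap.

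The study called a probe at an adjusted p of at most 0.05 with medians at least 4-fold apart. By limma, 3 of the 10 member probes were past these limits, all higher in A-/G+, and they belong to Nphs1 and Kirrel2. Of all probes, 0.399% were past them in this direction. Since the members were chosen on this contrast, nothing is read from the count. Of the probes inside the limits, the dimmer Kirrel2 probe was the nearest to 4-fold, with medians 5.26-fold apart. The other member probes were well short of 4-fold. The largest among them was the third probe of Kirrel, at 2.26-fold and not above background, followed by the second probe of Kirrel3 at 1.97-fold. A shift to the 75th percentile changed the balance of all probes past the limits from 851 with the higher signal in A+/G+ and 222 with the higher signal in A-/G+ to 604 and 938 respectively, and left the same 3 member probes past them. Normexp background correction took the dimmer Kirrel2 probe out of the limits, as did the methods' t-test, which left 2 member probes past them. Without A+/G+ array 1, 2 or 3 the brighter Kirrel2 probe alone was past them. Without A-/G+ array 1 the dimmer Kirrel2 probe was not.

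The neighbors of the pair on chromosome 7 were read to see whether they differed between the fractions as well. They were the 28 gene symbols with a probe within 200 kb of the span of the Nphs1 and Kirrel2 probes, of which 20 were above background on all arrays and 6 on none. By limma, 6 of 28 were higher in A-/G+, whereas 0 were higher in A+/G+ (also 0 at an unadjusted p under 0.05, and 0 by the methods' t-test). Among all gene symbols, 5.12% were called in the direction of A-/G+ and 7.48% in that of A+/G+. The median difference of the neighbors was -0.39, beside -0.03 for all gene symbols, and 23 of the 28 had the higher mean in A-/G+. None of the neighbors differed as much as the pair, the span of their differences being -0.96 to 0.49. On the Kirrel2 side the nearest was Aplp1, an amyloid precursor-like protein, 12.9 kb away. It gave 11.41, 11.18 and 10.95 in A+/G+ and 11.76, 11.90 and 11.85 in A-/G+, a difference of -0.66 (standard error 0.13, limma adjusted p = 0.0475). On the Nphs1 side the nearest was Prodh2, a proline dehydrogenase family member, 22.5 kb away and not above background on any array. Nphs1os, an antisense transcript whose probe lies between those of Kirrel2 and Nphs1, was not above background on any array either, with means of 2.03 and 2.07.

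The called neighbors with the largest differences were Arhgap33, a GTPase activating protein (-0.96, adjusted p = 0.0174), Wdr62, a protein of the centrosome and spindle (-0.91, adjusted p = 0.0120), Igflr1 (-0.79, adjusted p = 0.00797) and Aplp1. The brightest probe of Wdr62 lies 208 kb away, while another of its probes is inside the window. Kmt2b and Lin37 were called as well, at -0.60 and -0.47. The calls depended on the scaling and on single arrays. With a shift to the 75th percentile 1 neighbor was called, the median difference of the neighbors was -0.58 and that of all gene symbols was -0.40. Leaving out A+/G+ array 1, 2 or 3 left 2, 2 and 1 called neighbors, and leaving out A-/G+ array 1, 2 or 3 left 5, 3 and 4. Igflr1 was called in each of these 6 fits, and Aplp1 and Lin37 in none.

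**Figure D2:**
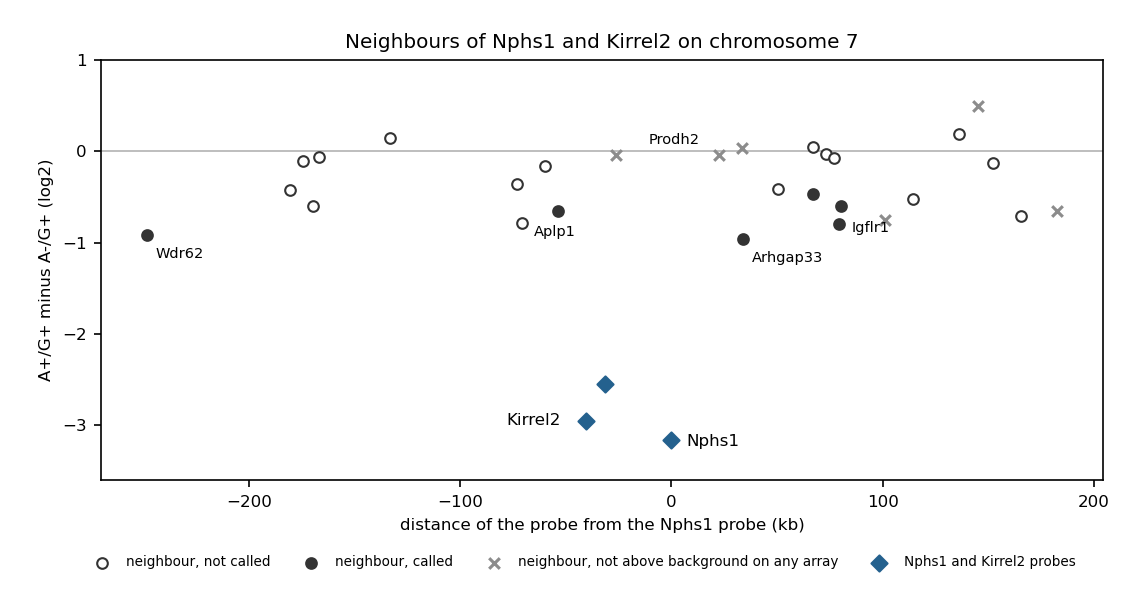
Difference between the fractions (A+/G+ minus A-/G+, log2, vertical axis) against the distance from the Nphs1 probe (kb, horizontal axis) for the 28 neighbors and the probes of Nphs1 and Kirrel2 on chromosome 7. The 3 probes of the pair lie between -3.16 and -2.55, and no neighbor lies below -0.96.

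The genes whose profile over the 6 arrays was most like that of each of the pair are given as a description. Likeness was the root mean square difference of the log2 signals after the mean of each gene was subtracted, over 11333 gene symbols above background on all arrays. Closest to Nphs1 were Adamts19, a secreted metalloprotease (0.18), Msx2, a homeobox factor (0.18), Wif1, an inhibitor of Wnt ligands (0.19), B3galt5, a galactosyltransferase (0.19) and Fgf15, a secreted growth factor (0.20). Kirrel2 was number 8 (0.27). Closest to Kirrel2 were Pcdh20, a protocadherin (0.07), Myh8, a myosin heavy chain (0.09), Msx2 (0.16), Gdf10, a ligand of the TGF-beta family (0.17) and Wif1 (0.17), and Nphs1 was number 13. These genes were all higher in A-/G+, with differences of -2.86 to -3.43. Ptf1a, which was looked up after the order was known, was number 8 for Kirrel2 (0.18) and number 17 for Nphs1 (0.35). Cd2ap, Kirrel and Kirrel3 came at number 6142 or later for both. The measure includes the difference between the fractions, on which the members were chosen. A gene with a similar difference therefore ranks high, and a gene without it ranks low. Nothing further is read from the shared direction or from these ranks.

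**Figure D3:**
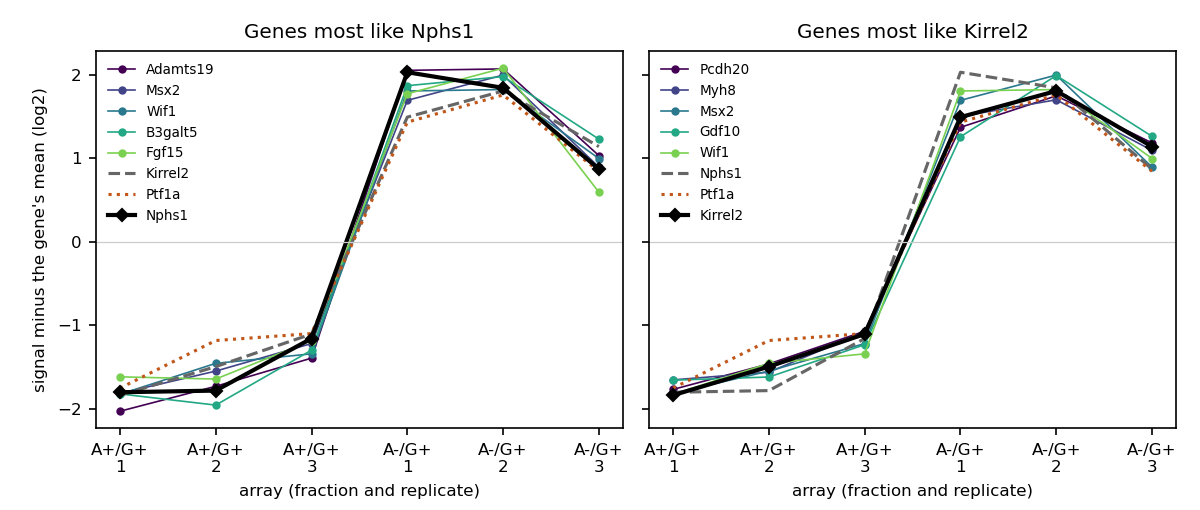
Normalized log2 signal minus the mean of the gene over the 6 arrays (vertical axis) on each array (horizontal axis; lines join arrays of 1 gene and the replicates have no order) for Nphs1 (left) and Kirrel2 (right), the 5 most similar genes of each, the other gene of the pair (dashed) and Ptf1a (dotted). All profiles are low on the A+/G+ arrays and high on the A-/G+ arrays, and A-/G+ array 3 is the lowest of its fraction for all of them except Gdf10.

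Ptf1a and genes of the GABAergic progenitor lineage were read next, as a nervous system setting in which both nephrin and Neph3 are known. Of 20 genes, 3 were called toward A+/G+ and 3 toward A-/G+ (15% each way, beside 7.48% and 5.12% of all gene symbols), and the median difference was -0.12. Ptf1a gave 7.14, 7.71 and 7.79 on the A+/G+ arrays and 10.32, 10.64 and 9.73 on the A-/G+ arrays, with no overlap and a difference of -2.69 (standard error 0.31, limma adjusted p = 0.0134). Like Nphs1, the brighter Kirrel2 probe and Slc1a3, it was lowest on array 1 of A+/G+ and on array 3 of A-/G+. Tcf4, an E protein, was slightly higher in A-/G+ (-0.50, adjusted p = 0.0425). Rbpj, the partner of Ptf1a and effector of Notch, did not pass the test (0.37, adjusted p = 0.105). Prdm13, a target of Ptf1a in the spinal cord, gave 8.72, 9.03 and 8.40 against 10.76, 11.17 and 9.71 and missed the limit (-1.83, adjusted p = 0.0673).

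The genes of the list that were higher in A+/G+ are known from GABAergic neurons. They were Skor2, a corepressor of Purkinje cells (5.85 ± 0.91 in A+/G+, above background on no A-/G+ array, at least 1.98-fold apart, adjusted p = 0.0183), Slc32a1, the vesicular GABA transporter (2.84, adjusted p = 0.0224), and Gad1, the enzyme of GABA synthesis (2.69, adjusted p = 0.0181). Of 7 Purkinje cell markers, 5 were called toward A+/G+ and 0 toward A-/G+, beside 7.48% and 5.12% of all gene symbols. No A-/G+ array had Calb1, Car8 or Foxp2 above background. The log2 of the summed signal of this list was 12.43 to 13.81 on the A+/G+ arrays and 10.75 to 11.15 on the A-/G+ arrays. The part of Purkinje cells in the values of Skor2, Slc32a1 and Gad1 was not tested. Nphs1, Kirrel2 and Ptf1a moved the opposite way to these markers. Leaving out A+/G+ array 1, 2 or 3 left 4, 2 and 1 called genes of the GABAergic list, and leaving out A-/G+ array 1, 2 or 3 left 4, 3 and 7. Ptf1a was called in 4 of these 6 fits.

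The other proteins of the slit diaphragm were read next. Of 28 partners, which are membrane proteins, adaptors, scaffolds and actin regulators that bind nephrin or Neph proteins or stand beside them in podocytes, 2 were called toward A+/G+ and 2 toward A-/G+ (7.14% each way, beside 7.48% and 5.12% of all gene symbols). Their median difference was 0.18. Magi2, a scaffold that binds nephrin at junctions, ran with nephrin. It gave 3.46, 3.74 and 3.78 in A+/G+, where it was above background on 1 array, and 6.06, 5.91 and 5.01 in A-/G+, medians 4.49-fold apart (adjusted p = 0.0265).

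Magi1, a paralog of Magi2, was higher in A-/G+ (-0.90, adjusted p = 0.0494) and Cask, a scaffold of membrane junctions, in A+/G+ (0.44, adjusted p = 0.0171). The cytoplasmic proteins that bind the phosphorylated tail of nephrin did not pass the test. These were Fyn, the kinase that phosphorylates nephrin (0.13, adjusted p = 0.524), and the adaptors Nck1 (0.37, adjusted p = 0.118) and Nck2 (0.44, adjusted p = 0.277). Tjp1, the junction protein ZO-1 that binds Neph1, was at 10.34 in A+/G+ and 10.33 in A-/G+ (adjusted p = 0.981). Leaving out A+/G+ array 1, 2 or 3 left 0 called partners each time by limma (7, 8 and 8 at an unadjusted p under 0.05), and leaving out A-/G+ array 1, 2 or 3 left 2, 3 and 7. Over these fits the adjusted p of Magi2 ran from 0.00635 to 0.103.

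Among 11 genes whose proteins act with Cd2ap at endosomes and actin, the median difference was 0.07, which became -0.33 with a shift to the 75th percentile. Rab4a, a GTPase of recycling endosomes, was called higher in A+/G+ (0.60, adjusted p = 0.0204) and Anln, an actin-binding protein of cell division, higher in A-/G+ (-0.51, adjusted p = 0.0145). Sh3kbp1, the paralog of Cd2ap, was at 6.31 ± 0.15 in A+/G+ and 6.77 ± 0.29 in A-/G+ and did not pass the test (-0.46, adjusted p = 0.213). Without A+/G+ array 1, 2 or 3 limma called 0 genes of the list (3, 2 and 2 at an unadjusted p under 0.05), and without A-/G+ array 1, 2 or 3 the number was 2, 1 and 5.

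Other adhesion molecules of the immunoglobulin superfamily were set beside the family, since nephrin and the Kirrel proteins belong to it. Of 42 genes, 9 were called toward A+/G+ (21.4%) and 2 toward A-/G+ (4.76%), beside 7.48% and 5.12% of all gene symbols. The median difference was 0.40. More of the called genes had the direction of Kirrel and Kirrel3 than that of Nphs1 and Kirrel2, and none of them lay below -0.79. Higher in A+/G+ were Cadm2, a synaptic adhesion molecule (2.28, adjusted p = 0.00380), Alcam (2.08, adjusted p = 0.0334) and the GPI-anchored proteins Negr1 (2.13, adjusted p = 0.0243) and Ntm (1.63, adjusted p = 0.0123). Higher in A-/G+ were the nectin Pvrl3 (-0.79, adjusted p = 0.0406) and Cntn1, a contactin (-0.73, adjusted p = 0.0460). L1cam, an antigen removed in the sort of A-/G+ cells, gave 2.54 (adjusted p = 0.0968), and Ncam1, whose polysialylated form was removed, 0.15 (adjusted p = 0.572). Cadm2 was called in all 6 fits that left out 1 array. Leaving out A+/G+ array 1, 2 or 3 left 2, 2 and 3 called genes, and leaving out A-/G+ array 1, 2 or 3 left 9, 5 and 22.

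**Figure D4:**
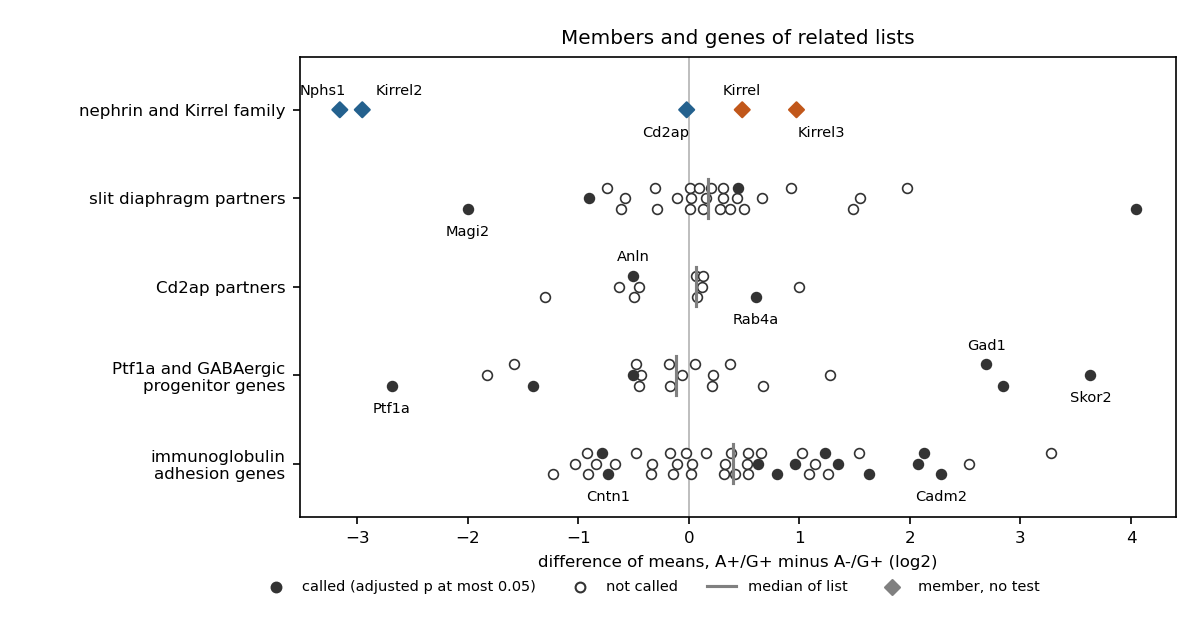
Difference between the fractions (A+/G+ minus A-/G+, log2, horizontal axis) for the brightest probe of each member (diamonds, no test) and for the genes of 4 related lists (rows; filled circles were called by limma, gray bars are list medians). Nphs1 and Kirrel2 lie beyond -2.9 on the side of Ptf1a and Magi2, while Skor2 lies beyond 3.6 on the other side.

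Markers of other cells were read to see which of them moved with the members. Beside the counts below, limma called 7.48% of all gene symbols toward A+/G+ and 5.12% toward A-/G+. Lists for oligodendrocyte precursors, vessel wall, meninges, and ependyma and choroid plexus held 3 of 6, 3 of 10, 2 of 6 and 3 of 8 genes called toward A+/G+ by limma, and 0 toward A-/G+ (0 as well at an unadjusted p under 0.05 and by the methods' t-test). The called genes of the last list, Tmem212, Rsph1 and Foxj1, are ependymal. Its choroid plexus genes Ttr (-0.48), Kcnj13 (-0.42), Clic6 (-0.25) and Kl (0.007) were not called. Kirrel and Kirrel3 had their higher signal in A+/G+ as well, and the part of the cells of these lists in their values was not tested. Of 9 genes of the granule neuron lineage, 2 were called toward A-/G+, the direction of Nphs1 and Kirrel2, namely Pax6 (-1.54) and Zic2 (-2.09), and 0 toward A+/G+ by limma (also 0 at an unadjusted p under 0.05 and by the methods' t-test). The list was not uniform, since 6 of the 9 had the higher mean in A+/G+ and the median difference was 0.33. Of 10 astroglial genes, Aldh1l1 (-0.64) was called toward A-/G+, whereas Gfap (3.03, adjusted p = 0.0182) and Gja1 (3.03, adjusted p = 0.00380) were called toward A+/G+, where 6 of the 10 had the higher mean. The log2 of the summed signal of the granule neuron list was 14.12 to 14.36 on the A+/G+ arrays and 14.70 to 14.96 on the A-/G+ arrays. That sum mainly reflected Zic1, by far the brightest gene of the list (A+/G+ mean 13.95, A-/G+ mean 14.55), which was not called (limma adjusted p = 0.0803). Averaged over the list, the log2 signal was nearly level, with 8.72 for A+/G+ against 8.70 for A-/G+. The part of this lineage in the values of Nphs1 and Kirrel2 was not tested. Of 10 microglia and blood genes 0 were called by limma (4 at an unadjusted p under 0.05, all toward A+/G+, and 0 by the methods' t-test), and Ptprc, which encodes the CD45 removed in the sort, was not above background on any array.

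The directions of Nphs1, Kirrel2, Kirrel and Kirrel3 held under other ways of processing, and the sizes moved, while Cd2ap stayed near 0 and changed sign. Over the alternatives tried, including each array left out, the difference was -3.51 to -2.49 for Nphs1, -3.14 to -2.57 for Kirrel2, 0.28 to 0.57 for Kirrel and 0.59 to 1.05 for Kirrel3, and -0.06 to 0.04 for Cd2ap. These ranges cover the brightest probe of each gene and the mean of all its probes. The dimmer Kirrel2 probe alone moved further, to -1.14 with normexp background correction.

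**Figure D5:**
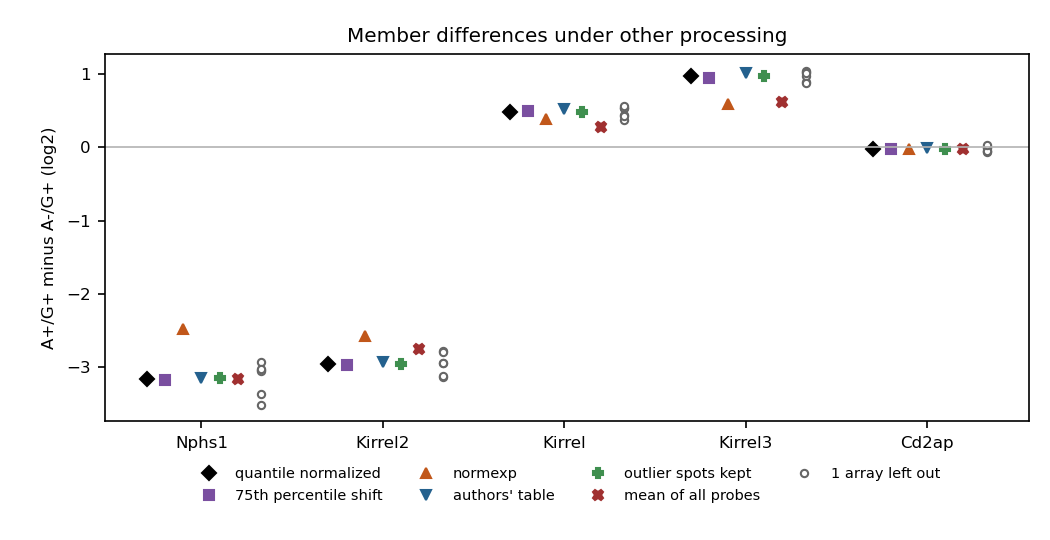
Difference between the fractions (A+/G+ minus A-/G+, log2, vertical axis) of each member (horizontal axis; brightest probe, or the mean of all probes where named) under quantile normalization and 5 other settings, and with each array left out (open circles). Nphs1 and Kirrel2 stay below -2.4, Kirrel and Kirrel3 stay above 0.2, and Cd2ap stays within 0.06 of 0.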

How the data were processed

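The authors deposited the scanner output of 6 arrays, in which Agilent Feature Extraction 10.7.3.1, per the file headers, gives a background-corrected intensity for every spot, as well as their own log2 values after quantile normalization. Here the intensities were taken to log2, controls and spots flagged as outliers (118 to 250 per array) were left out, arrays were quantile normalized, and spots of 1 probe were averaged. A gene is represented by its probe with the highest mean over the 6 arrays. The fractions were compared over 55681 probes with limma 3.58.1 in R 4.3.3 (fraction as the only term), which was tested on simulated data, and a gene was called at a Benjamini-Hochberg adjusted p of at most 0.05. The simulation gave each probe the same spread in both fractions, so it did not cover the wider spread between the A-/G+ arrays. No filter on dim probes was applied. The study's methods name a Student's test, kept as an alternative.

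Where no array of a fraction had a probe above background, only a bound is given (at least N-fold), computed from the brighter mean against the higher of its own signal and the lowest signal above background on each array. Precision is limited by the number of arrays, and an exact two-sided permutation test of 3 against 3 arrays cannot give a p below 0.1. Named were all member probes, up to 4 called genes per direction and list, direct partners, the nearest neighbors and the 5 most similar genes. Prdm13, Kmt2b, Lin37, Cntn4 and the marker genes named were picked after their values were seen. Of the called genes, 1 of the slit diaphragm list and 1 of the Ptf1a and GABAergic list are included in the counts and medians and are not reported here by name. The members and all lists were chosen with earlier results of these data known. Sequences came from the array annotation (mm9) and, for 4 of 5 members, RefSeq promoters (GRCm38.p6).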

Additional observations from a re-analysis of the deposited data

How the results depend on the processing

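The member differences kept their sign under every alternative for Nphs1, Kirrel2, Kirrel and Kirrel3, and that of Cd2ap passed 0 when single arrays were left out. They moved by more than the spread between arrays with normexp background correction (Nphs1 -2.49, Kirrel2 -2.57 and -1.14 for its dimmer probe, Kirrel3 0.59) and with the mean of all probes (Kirrel 0.28, Kirrel3 0.61). The cause was not tested. With 1 array left out, the differences ran from -3.51 to -2.93 (Nphs1), -3.14 to -2.78 (Kirrel2), 0.37 to 0.57 (Kirrel), 0.88 to 1.05 (Kirrel3) and -0.06 to 0.04 (Cd2ap).

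Counts of calls were less stable. A shift to the 75th percentile, which moved the median of all gene symbols to -0.40, gave 2 slit diaphragm partners, 0 Cd2ap partners, 5 immunoglobulin adhesion genes and 1 neighbor. The methods' t-test gave 2 member probes past the study's limits, 1 partner of the slit diaphragm, 3 Ptf1a and GABAergic genes, 5 adhesion genes and 3 neighbors. With the 4-fold limit added, 2 slit diaphragm partners, 0 Cd2ap partners, 3 adhesion genes and 0 neighbors remained. With 1 array left out, 1 to 3 member probes were past the study's limits, and 0 to 7 slit diaphragm partners, 0 to 5 Cd2ap partners, 1 to 7 Ptf1a and GABAergic genes, 2 to 22 adhesion genes and 1 to 5 neighbors were called. These fits have fewer arrays. The authors' table and outlier spots kept left the member differences within the spread between arrays and the counts within 1.5 times. A filter on dim probes, limma with trend and robust variance and normexp left the counts within 1.5 times, and a window of 100 kb did so for the neighbors.

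The labels do not say whether arrays with the same replicate number were paired. The deviations of same-numbered arrays from their fraction means correlated at 0.16, 0.10 and -0.09 across genes. Those of arrays with unlike numbers correlated at -0.20 to 0.15. With 3 arrays per fraction this cannot decide whether the arrays are paired. With the replicate number as a block, limma put 0 member probes past the limits (8 had an unadjusted p under 0.05) and called 0 genes of the 5 lists (at an unadjusted p under 0.05, 10 slit diaphragm partners, 4 Cd2ap partners, 12 Ptf1a and GABAergic genes, 19 adhesion genes and 7 neighbors). With no slide shared by the fractions, the slide block could not be fitted. The dimmer A-/G+ arrays limit what can be read for genes near background there, such as Skor2 and the 2 dim Kirrel probes.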
